A study of Arabidopsis thaliana with 48 samples.

Results

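A set of 150 genes had its highest mean level at 4 weeks in all 4 genotypes of a short-day time course of the Arabidopsis thaliana shoot apex. Reads per gene were scaled to counts per 1000000 reads assigned in the library (CPM) and averaged per genotype and week. For each genotype a score was taken as log2 of the 4 week mean plus 1 CPM over the highest mean of 3, 5 and 6 weeks plus 1 CPM. Of 27206 genes, 1172 scored above 0 in all 4 genotypes, and the 150 with the largest mean score over genotypes are the members described here. The members were thus chosen by their measured levels at 4 weeks relative to the other weeks, and these levels are given as a description with no test. Mean scores ran from 3.16 (LHY) to 0.593, with a median of 0.763. The last members inside the rule were AT4G24700 at 0.595, AT5G04860 at 0.594 and RVE4 (LCL1) at 0.593. The first genes outside it were AT5G50130 at 0.593, AT1G03610 at 0.593 and AT1G21140 at 0.588.

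The genotypes were the wild type Col (WT), the CHR4 insertion line chr4-2 (sail_783c05), the quintuple mutant svp flc ft tsf soc1, and qem2. The labels describe qem2 no further, and it is known from the study as an enhancer mutant isolated in the quintuple background. CHR4 is a CHD-type chromatin remodeller, and SVP, FLC, FT, TSF and SOC1 are flowering-time regulators. All plants grew in 8 h light and 16 h dark at 21 C and were sampled at 3, 4, 5 or 6 weeks after sowing, as material enriched for the apical meristem, with 15 apices per library. Each genotype and week had 3 libraries, labelled as biological replicates 1, 2 and 3. A single column, given as replicate 3 of qem2 at 5 weeks, duplicated the counts of quintuple at that week and replicate and was omitted, which leaves 47 libraries and n = 2 for that group. Depth was between 2.91 M and 19.7 M assigned reads, with a median of 14.2 M. CHR4 lay at 57.0 to 115 CPM in chr4-2 and at 151 to 239 CPM in WT, without overlap, and at 236 to 341 CPM in qem2. In quintuple CHR4 was at 162.5 to 281 CPM, which overlapped both qem2 and WT. SVP was lower in quintuple (32.4 to 68.1 CPM) than in WT (74.1 to 148 CPM). FLC overlapped between them, at up to 13.0 CPM in quintuple and 2.56 to 23.4 CPM in WT. SOC1 transcripts were at 4.76 to 11.1 CPM in quintuple and 1.18 to 7.98 CPM in WT, and FT and TSF were at or under 0.344 CPM in all libraries. A transcript count does not show whether the allele is functional. The labels give no hour of harvest and do not say whether a replicate number marks a shared sowing, day or batch. Meristem genes were present at 4 weeks, with STM at 85.7 to 164 CPM and KNAT1 at 53.3 to 108 CPM. The 12 markers of stamens, carpels and ovules summed to 16.8 to 69.5 CPM at 4 weeks and 9.06 to 22.5 CPM at 3 weeks. Their sum was 19.6 to 92.6 CPM at 5 weeks and 29.6 to 111 CPM at 6 weeks. Of these markers SPL8 held 12.4 to 65.2 CPM at 4 weeks, and AG 0 to 0.136 CPM.

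The leading members belong to the circadian clock. In plants, the MYB-like repressors CCA1 and LHY accumulate around dawn, together with their relatives of the REVEILLE (RVE) family and the LNK co-activators, and PRR9 follows in the morning. Evening genes such as TOC1, GI, ELF4, LUX and FKF1 accumulate later in the day, so that the level of a clock gene in a sample depends on the hour of sampling. A second group of members is known from darkness and sugar starvation, among them DIN10, bZIP1 and TPS11. The G-box, the DNA word CACGTG, is bound by basic leucine zipper and basic helix-loop-helix factors and occurs in promoters of light- and clock-regulated genes.

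The 250 bases before the annotated start of 5 of the 12 highest-scoring members are shown because each holds at least 1 G-box, written in capitals. They were read 5' to 3' along the gene from the RefSeq genome TAIR10.1.
LHY, chr1:37872-38121, minus strand: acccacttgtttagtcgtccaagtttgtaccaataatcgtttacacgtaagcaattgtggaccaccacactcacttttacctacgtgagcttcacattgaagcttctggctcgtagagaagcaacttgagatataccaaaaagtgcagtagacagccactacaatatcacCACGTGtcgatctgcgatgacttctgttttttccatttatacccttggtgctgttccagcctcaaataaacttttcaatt
CCA1, chr2:19245341-19245590, plus strand: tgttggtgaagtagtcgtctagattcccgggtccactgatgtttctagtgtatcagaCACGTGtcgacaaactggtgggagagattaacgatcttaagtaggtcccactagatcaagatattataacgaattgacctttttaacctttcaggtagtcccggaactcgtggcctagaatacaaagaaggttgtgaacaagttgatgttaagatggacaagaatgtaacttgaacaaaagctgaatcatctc
RVE1, chr5:5692993-5693242, minus strand: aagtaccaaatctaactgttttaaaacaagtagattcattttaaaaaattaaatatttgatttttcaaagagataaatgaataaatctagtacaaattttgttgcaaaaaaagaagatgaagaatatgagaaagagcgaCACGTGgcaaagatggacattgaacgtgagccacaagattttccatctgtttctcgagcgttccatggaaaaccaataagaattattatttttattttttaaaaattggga
LNK3 (AT3G12320), chr3:3923265-3923514, plus strand: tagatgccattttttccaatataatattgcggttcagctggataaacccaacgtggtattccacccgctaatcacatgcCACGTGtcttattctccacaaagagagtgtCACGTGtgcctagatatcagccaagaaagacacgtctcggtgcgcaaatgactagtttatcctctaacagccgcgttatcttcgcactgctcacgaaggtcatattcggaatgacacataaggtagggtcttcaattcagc
PRR9, chr2:19232357-19232606, plus strand: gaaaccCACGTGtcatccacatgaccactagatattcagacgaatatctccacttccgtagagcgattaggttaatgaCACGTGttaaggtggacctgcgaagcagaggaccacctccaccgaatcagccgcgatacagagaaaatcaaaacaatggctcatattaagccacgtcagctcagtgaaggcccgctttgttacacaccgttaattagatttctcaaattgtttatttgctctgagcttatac

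A G-box lay within 250 bases before to 50 bases after the start in 22 of the 149 members with a RefSeq promoter (14.8%), against 7.68% of 27438 promoters and 8.89% of those of tested genes. The word is its own reverse complement, and both strands were searched for every motif. In LHY the G-box began 80 bases before the start, in CCA1 193 and in RVE1 111. PRR9 held a pair, 244 and 172 bases before the start, and LNK3 (AT3G12320) held a pair at 171 and 141 bases. LNK2 (AT3G54500) and RVE8 carried theirs after the start. Of the 31 members whose replicate 2 library was the highest at 4 weeks in all 4 genotypes, 9 held a G-box (29.0%), and of the 19 with replicate 3 highest 3 did (15.8%). The ABRE core ACGTGGC, which can overlap a G-box by its letters ACGTG, was in 9.40% of members and 4.09% of all promoters. Site II, TGGGCC, was in 3.36% of members against 15.5% of all promoters, and the telo-box AAACCCTA was in 0 of 149 members against 6.22%. The evening element AAATATCT was in 6.71% of members and 5.65% of all promoters. These are counts of letters in a fixed window and do not show binding.

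The label of the set, a peak at 4 weeks, held for the group means but not for all libraries. None of the 150 members had all 12 libraries of 4 weeks above the 35 others, and over all tested genes the share was 0%. The 3 libraries of 4 weeks lay above every library of the other weeks in each of the 4 genotypes for 8 members, beside 0.0511% of all tested genes. In 1 genotype at a time such a separation was seen for 46 members in WT (3.91% of tested genes), 51 in chr4-2 (2.41%), 93 in quintuple (4.81%) and 48 in qem2 (2.72%). The rule favours such a separation, and nothing is read from these counts. A further 35 members were separate in no genotype.

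The difference followed the replicate label. When the score was recomputed with the libraries of 1 replicate number alone, 121 members scored above 0 in all 4 genotypes in replicate 2 (9.04% of tested genes did) and 124 in replicate 3 (5.83% of tested genes). In replicate 1 only 21 members did (0.736% of tested genes), and the median score of the 150 members was -0.0092 there, against 0.968 in replicate 2 and 1.06 in replicate 3. In replicate 3 qem2 had no library of 5 weeks and was scored against 3 and 6 weeks. These libraries also chose the members, so the scores describe where the peak lies. Replicate 1 was the lowest of the 3 libraries at 4 weeks in all 4 genotypes for 82 members (9.07% of tested genes) and the highest for 0 members, where 7.39% of tested genes had it highest. Replicate 2 was the highest in all genotypes for 31 members (7.11% of tested genes) and replicate 3 for 19 (2.48% of tested genes). A score above 0 in all 4 genotypes within each of the 3 replicate numbers was found for 11 members, beside 0.133% of tested genes.

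**Figure D1:**
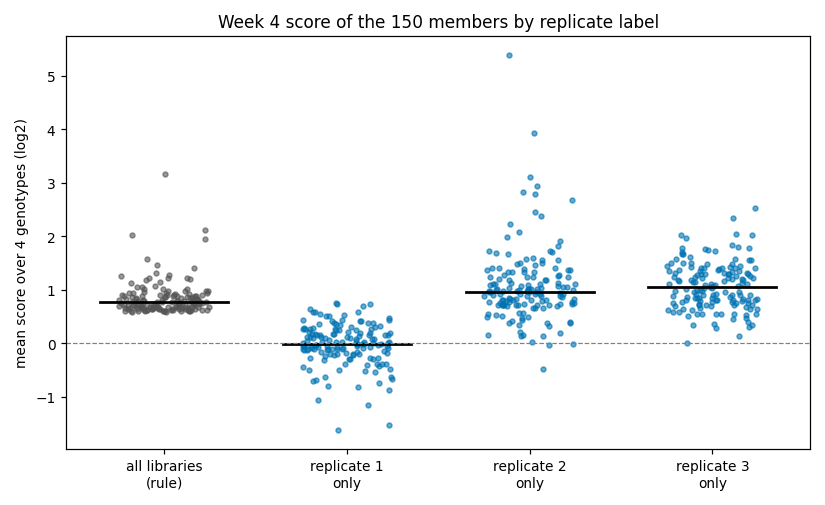
Mean week 4 score over the 4 genotypes (log2) of each of the 150 members, from all libraries and from the libraries of 1 replicate label alone; points are members and black lines medians. The medians are 0.763 with all libraries, -0.0092 in replicate 1, 0.968 in replicate 2 and 1.06 in replicate 3.

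The summed level of the members repeated this order. At 4 weeks it was 5151 to 6697 CPM in the replicate 1 libraries, 8522 to 10384 CPM in replicate 2 and 7171 to 16005 CPM in replicate 3. At 3 weeks the sum was 2699 to 5331 CPM, at 5 weeks 2459 to 6005 CPM and at 6 weeks 1704 to 3412 CPM. Replicate 3 was the higher of the labels in quintuple (16005 CPM) and qem2 (14781 CPM), and replicate 2 in WT (9908 CPM) and chr4-2 (9863 CPM). The summed level of replicate 1 at 4 weeks still overlapped only the upper end of the other weeks.

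LHY, CCA1, RVE8, RVE4, LNK2 and LNK3 stood highest in replicate 2 of 4 weeks in all genotypes. LHY measured 329 CPM in WT, 297 in chr4-2, 179 in quintuple and 116 in qem2 in the replicate 2 libraries. In replicate 3 LHY was at 14.3, 16.5, 61.2 and 39.6 CPM in the same order of genotypes, and in replicate 1 at 6.32, 5.88, 2.20 and 4.59 CPM. Replicate 1 thus lay within the range of the other weeks, where the highest LHY library, at 6 weeks, had 21.0 CPM.

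CCA1, the closest relative of LHY and its partner in the clock, gave 174, 135, 68.5 and 49.6 CPM in replicate 2 of WT, chr4-2, quintuple and qem2. In replicate 3 it was at 10.2, 9.32, 22.4 and 18.9 CPM, and in replicate 1 at 6.25, 3.19, 1.73 and 3.02 CPM. The other weeks held 1.55 to 14.7 CPM, so that CCA1 exceeded them in both replicates 2 and 3 only in quintuple and qem2.

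RVE8, an activator of evening genes of the same family, was at 65.7, 60.2, 36.9 and 29.9 CPM in replicate 2 and at 3.22 to 4.78 CPM in replicate 1, with 1.52 to 12.0 CPM at other weeks. RVE4 (LCL1), the member of rank 150, had 87.4, 88.1, 95.2 and 109 CPM in replicate 2, with 24.3 to 37.8 CPM in replicate 1. RVE1, which links the clock to auxin synthesis, was the exception in this family. It was high in replicate 2 of every genotype (13.4, 16.2, 14.5 and 14.8 CPM) and higher still in replicate 3 of quintuple (22.9 CPM) and qem2 (20.2 CPM), but at 3.14 and 3.70 CPM in replicate 3 of WT and chr4-2.

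LNK2 (AT3G54500) is a co-activator that works with RVE8. Its replicate 2 levels were 695, 521, 446 and 347 CPM in WT, chr4-2, quintuple and qem2, its replicate 3 levels 178, 136, 278 and 235 CPM, and its replicate 1 levels 94.7, 54.2, 76.6 and 58.3 CPM. LNK3 (AT3G12320) ran from 29.7 to 66.6 CPM in replicate 2 and from 2.74 to 6.25 CPM in replicate 1. LNK4 (AT5G06980) ran from 35.7 to 53.3 CPM in replicate 2 and was as high in replicate 3 of quintuple (39.7 CPM) and qem2 (38.6 CPM). PRR9, a repressor of CCA1 and LHY, was at 35.2, 31.1, 20.9 and 16.0 CPM in replicate 2 and at 7.95, 5.98, 4.01 and 3.57 CPM in replicate 1, and was as high in replicate 3 of qem2 (16.8 CPM).

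**Figure D2:**
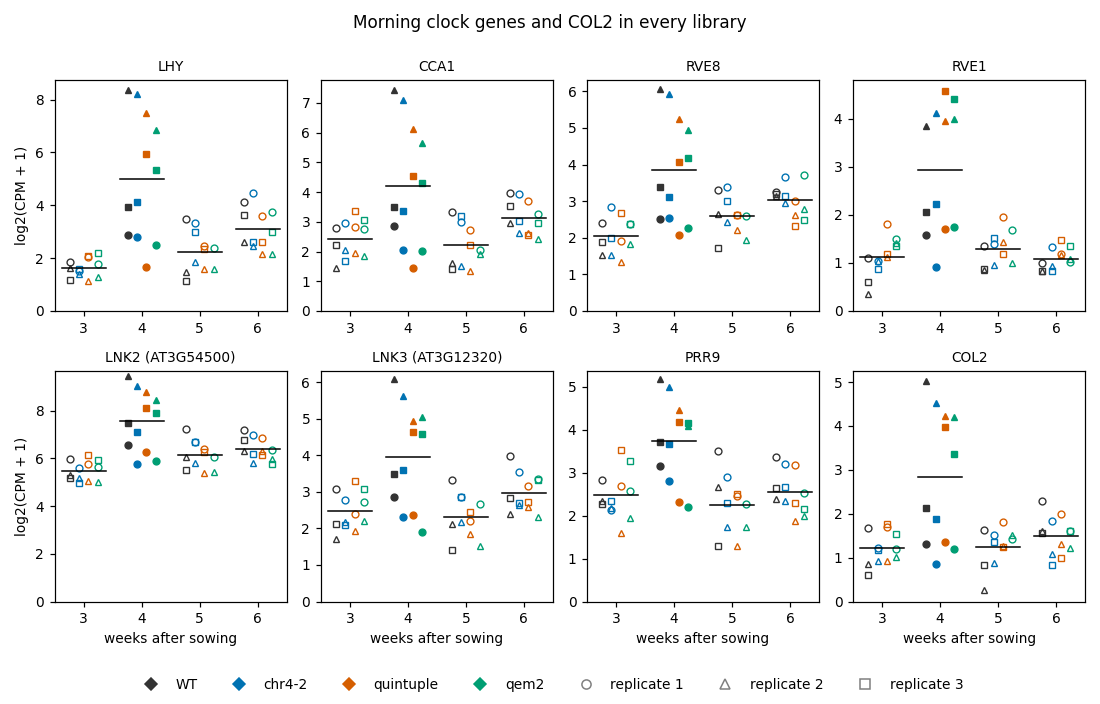
Level of 8 members in every library, as log2(CPM + 1), by weeks after sowing; colours are genotypes, symbols replicate labels, filled symbols 4 weeks and black lines means of a week. Triangles (replicate 2) lie at the top at 4 weeks for LHY, where they reach 329 CPM, while circles (replicate 1) lie among the other weeks.

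Across a list of 18 clock genes, 9 were called higher and 8 lower (23.3% of tested genes) at 4 weeks than in the mean of the other weeks, at adjusted p under 0.05 in edgeR, where 50.6% of all tested genes were called in either direction (27.3% higher). The median log2 fold change of the list was 0.02, beside 0.01 for all tested genes. The members are CCA1, LHY, RVE8, RVE4, LNK2 and PRR9, which the rule chose on this contrast. The other 3 called higher were LNK1, PRR7 and ZTL. All 8 that fell are known to peak in the afternoon or evening, and at 4 weeks their mean over genotypes was lowest in replicate 2. FKF1, a photoreceptor of the flowering pathway, was at 0 to 0.982 CPM in replicate 2 of 4 weeks and at 21.8 to 74.8 CPM in replicate 1. ELF4 was at 0 to 0.162 CPM in replicate 2 and at 3.87 to 10.5 CPM in replicate 1. LUX was at 5.47 to 11.1 CPM in replicate 2 and at 33.2 to 49.2 CPM in replicate 1. PRR5 was at 3.11 to 12.0 CPM in replicate 2, 34.3 to 50.3 CPM in replicate 3 and 59.6 to 131 CPM in replicate 1. Morning and evening genes thus moved in opposite directions between replicate labels of 1 week, in all 4 genotypes. With the hour of harvest not given, its part in these levels was not tested.

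Some members that encode B-box or light-signalling proteins were also high in replicate 2; they were chosen after their values were seen. COL2, a relative of CONSTANS, was at 17.3 to 31.3 CPM in replicate 2 and at 0.797 to 1.57 CPM in replicate 1. COL1 was at 9.07 to 15.3 CPM in replicate 2, and BBX19 at 16.8 to 32.8 CPM. BBX25 (STH) had 54.2, 44.7, 26.2 and 21.8 CPM in replicate 2 and 6.17 to 10.9 CPM in replicate 1. SPA3, a partner of the ubiquitin ligase COP1, was at 72.7 and 76.7 CPM in replicate 2 of WT and chr4-2 and at 38.0 and 32.1 CPM in quintuple and qem2. CDF2, a repressor of CONSTANS, was at 28.8 to 36.2 CPM in replicate 2 and 6.18 to 8.18 CPM in replicate 1, but was as high in replicate 3 of quintuple (38.5 CPM) and qem2 (35.3 CPM). In the light-signalling list 11 of 18 tested genes were called higher and 1 lower, of which 10 higher are no members, and BBX25 is the member. Over all tested genes 27.3% were called higher at 4 weeks and 23.3% lower.

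A different order held for genes of sugar starvation. DIN10, a raffinose synthase-like gene induced in the dark, reached 2057 CPM in replicate 3 of quintuple and 1513 CPM in replicate 3 of qem2. In the other replicates of these genotypes DIN10 was at 376 and 202 CPM in quintuple and at 354 and 126 CPM in qem2. In WT it was at 61.9, 17.9 and 144 CPM in replicates 1, 2 and 3, and in chr4-2 at 79.8, 21.3 and 92.4 CPM. Other weeks ran from 15.3 to 390 CPM, so that only the 2 replicate 3 libraries of quintuple and qem2 exceeded them.

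The bZIP1 transcription factor, which acts in the low-energy response, was at 28.9 and 28.5 CPM in replicate 3 of quintuple and qem2 and at 1.29 to 4.05 CPM in WT. TPS11, a protein of the trehalose 6-phosphate synthase family, was at 77.4, 126 and 258 CPM in replicates 1, 2 and 3 of quintuple and at 77.7, 151 and 228 CPM in qem2. In WT it was at 26.2, 36.0 and 34.7 CPM and in chr4-2 at 21.9, 47.4 and 39.8 CPM, so that these groups overlapped the other weeks (14.1 to 64.3 CPM). Of 11 tested genes of the starvation and darkness list, 9 were called higher at 4 weeks and 1 lower, with a median log2 fold change of 0.92. The rule chose DIN10, bZIP1 and TPS11 on this contrast, and 6 of those called higher are no members, where 27.3% of tested genes were called higher. They include DIN6, an asparagine synthetase, with up to 290 CPM in replicate 3 and 6.98 to 21.2 CPM in replicate 1.

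Other members highest in replicate 3 of quintuple and qem2 were BMY3, ERD5, BGAL1 and GDPD2, named after their values were seen. BMY3, of the beta-amylase family, was at 408 and 270 CPM in replicate 3 of quintuple and qem2 and at up to 57.5 CPM in the WT and chr4-2 libraries of 4 weeks. ERD5, the proline dehydrogenase that starts proline breakdown, was at 674 and 438 CPM in the same libraries and at 49.6 to 89.2 CPM in WT and chr4-2. BGAL1, a beta-galactosidase, was at 1244 and 1336 CPM there, against 227 to 402 CPM in WT and chr4-2. GDPD2, a glycerophosphodiester phosphodiesterase, rose above 15.6 CPM at 4 weeks only in those libraries, at 174 and 86.5 CPM. Replicate 3 was the highest library at 4 weeks in both quintuple and qem2 for 69 members (16.9% of tested genes), and replicate 2 in both WT and chr4-2 for 83 (21.3% of tested genes).

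**Figure D3:**
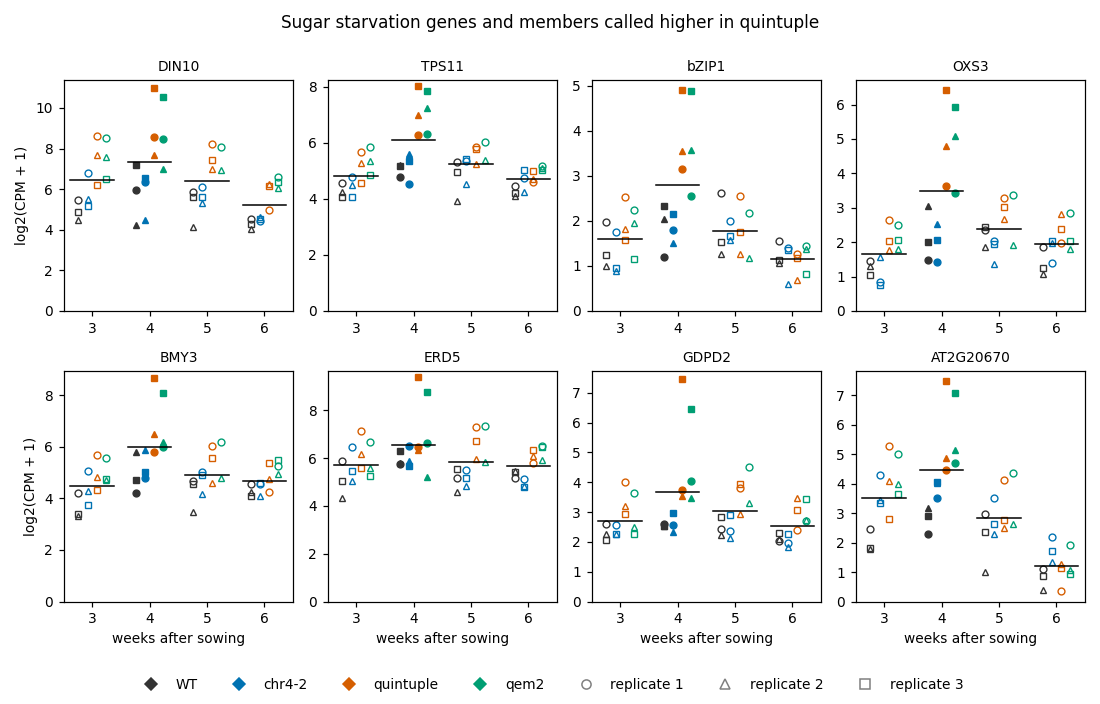
Level of 8 members in every library, as log2(CPM + 1), by weeks after sowing; colours are genotypes, symbols replicate labels, filled symbols 4 weeks and black lines means of a week. At 4 weeks the squares (replicate 3) of quintuple and qem2 lie on top, at 2057 and 1513 CPM for DIN10.

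AAP2, an amino acid permease of the phloem and the member with the highest CPM at 4 weeks, was at 1730, 2210 and 2048 CPM in replicates 1, 2 and 3 of WT and at 1224, 2249 and 1659 CPM in chr4-2. In quintuple it was at 1111, 1678 and 1227 CPM and in qem2 at 873, 862 and 1350 CPM. AAP2 was at 555 to 962 CPM at 3 weeks, 113 to 1454 CPM at 5 weeks and 31.5 to 397 CPM at 6 weeks. In qem2, replicates 1 and 2 of 4 weeks thus lay within the range of 3 weeks, and AAP2 scored above 0 in all genotypes within replicate 3 only.

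MT3, a metallothionein that binds metal ions, was at 242 to 524 CPM at 4 weeks at 96.5 to 198 CPM at 3 weeks, 185 to 331 CPM at 5 weeks and 102 to 423 CPM at 6 weeks, so that the weeks overlapped. MT3 was separate in WT and chr4-2, and within replicate 3 it did not score above 0 in all genotypes. MC3, a metacaspase, was at 49.7 to 115 CPM at 4 weeks, at 22.9 to 52.9 CPM at 3 weeks and at 3.44 to 16.1 CPM at 6 weeks, and was separate in all genotypes but qem2.

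The 8 members separate in all 4 genotypes score above 0 in all genotypes under each replicate label by the definition of separate. TET6, AT4G16790 and AT1G67865 scored so as well, without being separate in all genotypes. AT3G61210, of the methyltransferase superfamily, had the highest rank of the 8. It was at 17.0 to 48.8 CPM at 4 weeks, 6.62 to 17.7 CPM at 3 weeks and 0.349 to 2.33 CPM at 6 weeks. The other 7 were AT1G49200, BGLU46, AT1G02630, AT5G38200, AT4G22160, PLC1 and AT4G15670. BGLU46 is a beta-glucosidase that acts on monolignol glucosides and was at 24.9 to 74.1 CPM at 4 weeks. PLC1, a phospholipase C, was at 5.49 to 14.6 CPM at 4 weeks and at 1.01 to 5.85 CPM at the other weeks.

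**Figure D4:**
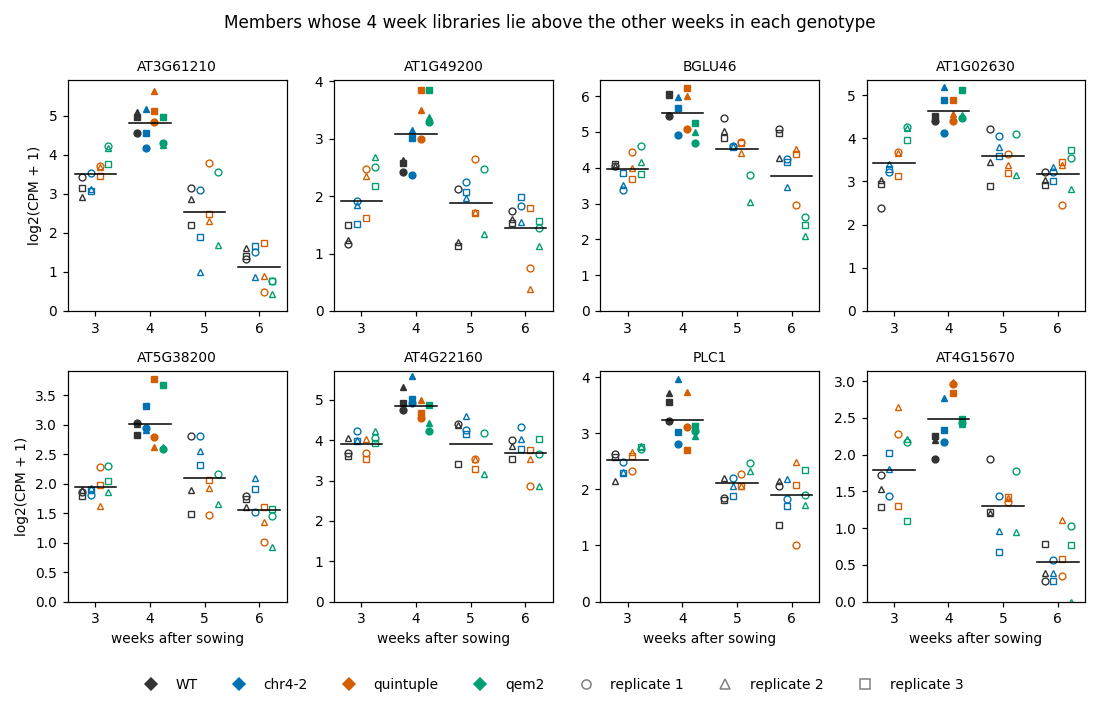
Level of 8 members in every library, as log2(CPM + 1), by weeks after sowing; colours are genotypes, symbols replicate labels, filled symbols 4 weeks and black lines means of a week. In each colour the filled symbols lie above the open ones, while over all genotypes the ranges touch or overlap, as for AT3G61210 at 17.0 to 48.8 CPM at 4 weeks and up to 17.7 CPM at other weeks.

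The summed level of vascular markers at 4 weeks lay above that of 5 and 6 weeks and overlapped that of 3 weeks. Its median was 443 CPM at 4 weeks, 362 CPM at 3 weeks, 219 CPM at 5 weeks and 173 CPM at 6 weeks. The sum of the 11 xylem and phloem markers was 344 to 594 CPM at 4 weeks and 316 to 485 CPM at 3 weeks. It was 147 to 302 CPM at 5 weeks and 126 to 212 CPM at 6 weeks. All 11 of 11 were called higher at 4 weeks than in the mean of the other weeks, which includes the low 5 and 6 weeks. XCP1, a protease of xylem cells, was at 18.6 to 37.8 CPM at 4 weeks and at most 6.92 CPM at 6 weeks. PP2-A1, a phloem lectin, was at 67.4 to 195 CPM at 4 weeks and 7.14 to 27.2 CPM at 6 weeks. No marker of this list is a member, and its part in the members' levels was not tested. The 10 leaf mesophyll markers summed to 11775 to 18317 CPM at 4 weeks and to 11027 to 21907 CPM at 3 weeks. Their sum was 9436 to 15206 CPM at 5 weeks and 9820 to 16184 CPM at 6 weeks, and 4 of 10 were called higher at 4 weeks. Of the meristem and boundary markers 6 of 14 were called higher, of the epidermal markers 0 higher and 4 lower of 11, of the root markers 1 of 4 tested higher and of the seed markers 2 of 4 tested higher. Floral organ markers had 0 of 6 tested called. Beside these counts, 27.3% of all tested genes were called higher at 4 weeks and 23.3% lower. In these pools of whole tissue, a change in the number of cells of a type and a change of RNA per cell cannot be told apart.

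Some members are neighbours. The glutaredoxin-like genes AT4G15660, AT4G15670, AT4G15680, AT4G15690 and AT4G15700 are 5 consecutive members on chromosome 4, where 35 members lie (23.5%, against 15.3% of tested genes). They are close copies, so that reads may have been divided between them. AT4G15700 was at 4.66 to 12.0 CPM at 4 weeks and at 0 to 0.814 CPM at 6 weeks. AT4G15680 was at 2.92 to 6.88 CPM at 4 weeks and at 0 to 0.389 CPM at 6 weeks. UMAMIT20 and UMAMIT17, which encode transporters of a family that exports amino acids, are also adjacent on chromosome 4, as are TPPH and AT4G39780. The pairs on chromosome 1 were AT1G02630 with BXL2, AT1G11070 with scpl31, and AT1G67860 with AT1G67865.

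Of the hormone lists, those of cytokinin and auxin each held 1 member, and those of gibberellin and ethylene held 0. GH3.9, annotated as a putative indole-3-acetic acid-amido synthetase, is a member outside these lists. ARR9, a type-A response regulator of cytokinin signalling, was at 77.0, 128 and 87.3 CPM in replicates 1, 2 and 3 of WT and at 71.0, 123 and 139 CPM in quintuple. At 3 weeks ARR9 was at 40.5 to 95.4 CPM. In the cytokinin list 8 of 13 tested genes were called higher at 4 weeks and 1 lower. Over all tested genes 27.3% were called higher and 23.3% lower. GH3.5 (WES1), which conjugates auxin to amino acids, reached 319 CPM at 4 weeks, in replicate 3 of qem2, and in the auxin list 10 of 15 tested genes were called higher and 0 lower. None of the 16 floral repressors or the 15 tested floral promoters and identity genes was a member. Over all 19566 tested genes 150 are members. Of the repressors 10 were called higher and 2 lower at 4 weeks. The promoters and identity genes had 3 called higher and 4 lower.

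PIP2A and RD28, aquaporins of the plasma membrane, were also members. PIP2A was at 201, 677 and 326 CPM in replicates 1, 2 and 3 of WT, and at 189, 628 and 784 CPM in quintuple. Its 3 week level, 180 to 317 CPM, overlapped the replicate 1 libraries of 4 weeks, at 180 to 201 CPM. RD28 was at 38.3 to 111 CPM at 4 weeks. The chaperone J8 was at 69.7, 159 and 123 CPM in WT and at 256, 399 and 890 CPM in quintuple, and its relative J11 at 65.0, 103 and 95.0 CPM and at 191, 287 and 558 CPM. AT5G21940 was at 47.6, 119 and 67.0 CPM in WT and at 175, 266 and 562 CPM in quintuple. AT3G29240 was at 42.3, 102 and 60.1 CPM in WT and at 49.6, 115 and 172 CPM in quintuple.

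Between genotypes at 4 weeks, which the rule did not compare, 28 of 150 members were called higher in quintuple than in WT and 0 lower (18.7%). Over all 19566 tested genes 7.52% were called higher and 4.83% lower, and 12.4% in either direction. Calls were made with edgeR's quasi-likelihood test at Benjamini-Hochberg adjusted p under 0.05 over all tested genes. The median log2 fold change was 0.18 over the members and -0.01 over all tested genes. The rule takes the mean score of all genotypes, so a gene raised at 4 weeks in the quintuple background could enter by that rise. The 28 included genes of low energy such as DIN10, bZIP1, TPS11, BMY3 and ERD5, and 0 of the 6 members of the clock list. In 26 of the 28 the highest library at 4 weeks was replicate 3 in both quintuple and qem2. This order held for 69 of the 150 members (46%) and for 16.9% of tested genes. Its share was not taken among all genes called higher in quintuple, so nothing is read from the 26.

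The called members with the smallest adjusted p were led by OXS3, a gene of stress tolerance. The rule used their 4 week levels in quintuple, so their fold changes and p-values are a description and no independent support. OXS3 was at 1.77, 7.21 and 3.04 CPM in WT and at 11.4, 26.5 and 84.4 CPM in quintuple, without overlap. Its log2 fold change was 3.48 (SE 0.62, edgeR adjusted p = 0.00052). TPS11 had a log2 fold change of 2.28 (SE 0.41, edgeR adjusted p = 0.00057). BXL2, a beta-xylosidase, was at 57.8, 58.2 and 60.1 CPM in WT and at 127, 200 and 549 CPM in quintuple, with a log2 fold change of 2.33 (edgeR adjusted p = 0.0012). For GDPD2 the WT libraries were at 5.03, 4.72 and 4.85 CPM and those of quintuple at 12.3, 10.7 and 174 CPM, with a log2 fold change of 3.78. AT2G20670, at 3.94, 7.95 and 6.55 CPM in WT and 21.2, 28.1 and 175 CPM in quintuple, changed by 3.67. ACBP3, an acyl-CoA-binding protein, was at 13.7, 19.6 and 16.5 CPM in WT and at 26.2, 32.5 and 125 CPM in quintuple.

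Clock members did not pass this test. LHY had a log2 fold change of -0.50 between quintuple and WT (edgeR adjusted p = 0.82) and CCA1 of -1.0 (edgeR adjusted p = 0.57), with standard errors of 1.11 and 1.03. The count of 28, beside 2417 of all genes, was 2 without quintuple 4 weeks replicate 3, beside 356 of all genes. It was 1 in a fit of the compared libraries alone, beside 285 of all genes. With the replicate number as a block within each week it was 48, of which 41 were higher and 7 lower, where 18.5% of tested genes were called (10.2% higher and 8.27% lower). With the replicate block alone it was 28, beside 12.7% of tested genes.

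Between chr4-2 and WT at 4 weeks, 0 members were called by edgeR, beside 1.09% of all tested genes, with 1 member at an unadjusted p under 0.05 and 0 called by DESeq2. Between qem2 and quintuple 0 were called by edgeR, beside 1.23% of tested genes, with 4 members at an unadjusted p under 0.05 and 0 called by DESeq2. The block within each week called 2 members there, AT4G37560 higher and AT2G36950 lower, beside 1.88% of tested genes (1.18% higher and 0.7% lower).

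The height of the peak was compared as the log2 difference of 4 weeks from the mean of the other weeks. No member was called between quintuple and WT in edgeR (0.0256% of tested genes were), although 34 had an unadjusted p under 0.05, and DESeq2 called 0. The median difference was 0.50 over the members and 0.01 over all tested genes. With the block within each week 17 members were called, all taller in quintuple, beside 3.51% of tested genes (2.23% taller and 1.28% shorter). The rule scored this height and averaged it over genotypes, so its direction is in part fixed by the choice of members: bZIP1 scored 0.0035 in WT and 2.04 in quintuple, and OXS3 0.095 and 2.37. The 17 included bZIP1 at 2.32 (edgeR adjusted p = 0.0018) and TPS11 at 1.37 (edgeR adjusted p = 0.0043). With a WT score so near 0, bZIP1 could enter only by its scores in other genotypes. These p-values are thus a description and no independent support. Without quintuple 4 weeks replicate 1 the count without a block was 11, beside 472 of all genes. The main fit called 5 of all genes. Between chr4-2 and WT and between qem2 and quintuple 0 members and 0% of tested genes were called by edgeR, with 0 and 1 members at an unadjusted p under 0.05, and DESeq2 called 0 in both.

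The sides of the peak were compared as 6 against 3 weeks. In quintuple 55 members were called lower at 6 weeks and 0 higher, and in qem2 66 lower and 0 higher. Among tested genes 41.5% were called in quintuple (21% lower and 20.5% higher) and 35.5% in qem2 (17.5% lower and 18% higher). In WT 21 members fell and 15 rose, where 38% of tested genes were called (19.2% lower and 18.8% higher). In chr4-2 25 fell and 7 rose, where 45.9% were called (23.1% lower and 22.9% higher). The median log2 fold change of the members was -0.70 in quintuple, -0.90 in qem2, 0.02 in WT and -0.10 in chr4-2, with medians of all tested genes from 0.00 to 0.02 in size. In a fit of the compared libraries alone 59 members were called in WT and 61 in chr4-2, and without chr4-2 6 weeks replicate 1 chr4-2 had 19. Over all genes these fits called 8039, 7563 and 7552, against 7426 in WT and 8989 in chr4-2 in the main fit. The fit of the compared libraries alone called 3 members higher and 54 lower in quintuple, and 5 higher and 73 lower in qem2. Over all genes it called 8306 in quintuple and 6325 in qem2.

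A call lower at 6 weeks in all 4 genotypes was made for 14 members (9.33%), close to the 9.64% of all tested genes. AAP2 had log2 fold changes of -1.33 in WT, -2.14 in chr4-2, -2.50 in quintuple and -3.63 in qem2. AT3G61210 changed by -2.30, -2.44, -3.29 and -4.85, and MC3 by -1.34, -1.52, -1.90 and -1.94. RL3, a RAD-like MYB protein, was at 25.3 to 44.9 CPM at 3 weeks and 5.46 to 20.5 CPM at 6 weeks. AT2G32870 was at 7.92 to 16.2 CPM at 3 weeks and at 0 to 1.2 CPM at 6 weeks. The others were AT5G59080, AT4G15700, AT3G62950, AT4G15690, AT1G33700, AT4G15680, AT5G01210, AT4G15670 and CAD2.

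Several transporter genes were called lower at 6 weeks in quintuple and qem2, while UMAMIT20 was called higher in WT. UMAMIT20 was at 17.2, 14.7 and 14.2 CPM at 3 weeks in WT, at 66.7, 90.7 and 95.6 CPM at 4 weeks and at 79.6, 55.5 and 53.3 CPM at 6 weeks. In quintuple UMAMIT20 was at 20.6, 19.5 and 18.5 CPM at 3 weeks, at 66.8, 81.3 and 92.0 CPM at 4 weeks and at 0.135, 2.02 and 7.34 CPM at 6 weeks. In qem2 at 6 weeks it was at 0.344, 0.209 and 0.282 CPM, and in chr4-2 at 42.8, 19.5 and 40.1 CPM. The 6 week levels of quintuple and qem2 thus lay below all those of WT and chr4-2.

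AT3G25190, of the vacuolar iron transporter family, was at 54.3, 41.5 and 38.1 CPM at 6 weeks in WT and at 0.674, 1.94 and 5.08 CPM in quintuple, after 54.3, 93.1 and 89.4 CPM at 4 weeks. AT1G76800, of the same family, was at 20.0, 15.9 and 14.1 CPM at 6 weeks in WT and at 0.404, 1.17 and 2.89 CPM in quintuple. The levels of both at 3 weeks were alike in these genotypes, at 23.6 to 30.0 CPM for AT3G25190 and 6.06 to 9.79 CPM for AT1G76800.

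The difference of the change from 3 to 6 weeks between quintuple and WT was tested in the same fit after these values were seen. It was called for 14 members, all lower in quintuple, by edgeR (9.33%), beside 0.716% of tested genes called lower, 0.327% higher and 1.04% in either direction. UMAMIT20 differed by -4.70 on the log2 scale (SE 0.80, edgeR adjusted p = 0.0014) and AT3G25190 by -4.37 (SE 0.69, edgeR adjusted p = 0.00064). AT1G76800 differed by -3.71, bHLH11 by -2.70, AT2G38600 by -4.85 and AT5G50120 by -3.60. In 6 of the 14 the WT level was called higher at 6 than at 3 weeks, and all 14 were called lower in quintuple. UMAMIT11, UMAMIT17 and scpl31, a serine carboxypeptidase, were also among them. The count was 7 without WT 6 weeks replicate 1 and 7 without quintuple 6 weeks replicate 1. Between chr4-2 and WT 0 members were called by edgeR (0.133% of tested genes), with 5 at an unadjusted p under 0.05 and 0 by DESeq2. Between qem2 and quintuple 0 were called by edgeR (0.107% of tested genes), with 8 at an unadjusted p under 0.05 and 2 by DESeq2.

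**Figure D5:**
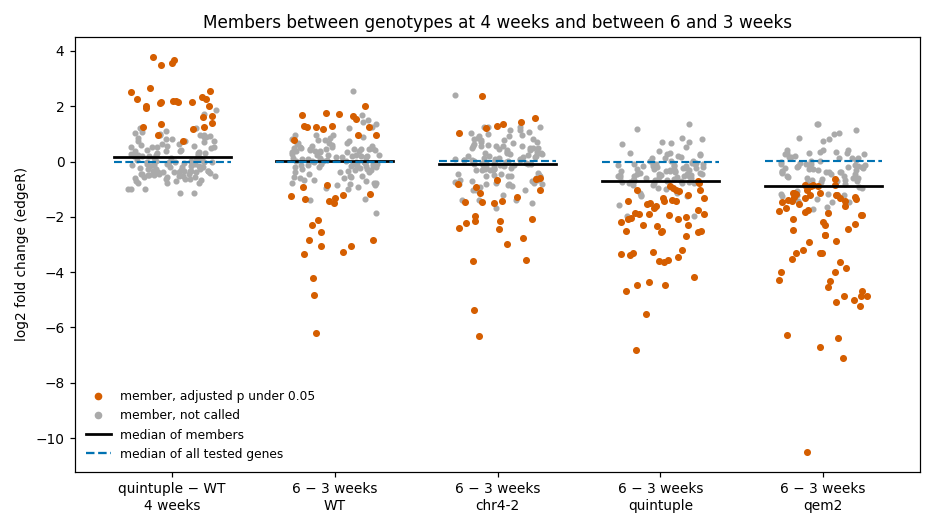
Log2 fold changes of the 150 members (edgeR) between quintuple and WT at 4 weeks and between 6 and 3 weeks in each genotype; orange points are called, black lines are medians of the members and dashed lines medians of all tested genes. The medians of the members are -0.70 in quintuple and -0.90 in qem2 between 6 and 3 weeks, and the lowest point of WT, chr4-2 and qem2 is in each a gene with no read at 6 weeks, whose fitted value is no measured size.

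In the fit of 47 libraries, members called higher at 6 than at 3 weeks were called so in WT or chr4-2. A call in both was made for 5 (3.33%), beside 14.9% of tested genes. AT1G67865 was at 13.5 to 89.1 CPM at 3 weeks and at 26.0 to 146 CPM at 6 weeks over all genotypes, with a log2 fold change of 1.76 in WT and 2.38 in chr4-2. The bZIP58 transcription factor changed by 1.53 in WT and 1.56 in chr4-2, and ASG1 by 1.70 and 1.28. RVE4 (LCL1) changed by 1.28 in WT and 1.23 in chr4-2. AT5G19875 and MT3 were called higher in WT, by 1.63 and 0.96.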

How the data were processed

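RNA of 48 libraries was sequenced, and the table of counts per gene that the authors deposited was used. Its values are raw whole-number counts, per the file headers. The submitters' processing notes name TopHat2, SAMtools, HTSeq, DESeq2 and the TAIR10 build without versions, and other deposited tables were not used here. Strand settings are not given in the sources used here, so reads of overlapping or antisense genes may be included. Libraries are biological replicates per the labels' protocols, and no label states a pairing across genotypes.

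CPM are counts over the column sum, without TMM scaling. Tests used edgeR 4.0.16 (limma 3.58.1, R 4.3.3) on 47 libraries in 16 groups in 1 quasi-likelihood fit, with TMM, filterByExpr (19566 genes, all 150 members), robust estimation and Benjamini-Hochberg adjustment. DESeq2 1.42.0 was an alternative. The procedure was tested on simulated counts of independent libraries. These hold no deviation shared by a replicate number, so the simulation does not cover that feature of the 4 week libraries. The biological coefficient of variation was 14.7%. In the shallowest library 10 reads are 3.44 CPM. PCR duplicates were not marked by identifiers, so counting precision covers counting error alone.

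The members and lists were chosen with earlier results of these data known. The named genes are the 10 members of largest score, the 10 most abundant, up to 6 called per comparison and direction, and members of 25 pathway lists. Other members were chosen after their values were seen. List symbols were matched to TAIR10.1 RefSeq names (440 of 470), whose coordinates and promoters (149 members) were read from that genome and annotation, and 98.2% of identifiers matched. The test of differences in change from 3 to 6 weeks, and the block within each week, were added after seeing the data.

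Same-numbered libraries were checked by the correlation of their deviations from group means over tested genes. At 4 weeks these were 0.268, 0.463 and 0.174 between chr4-2 and WT, and 0.541, 0.362 and 0.538 between qem2 and quintuple, all above 0.1. Between quintuple and WT they were 0.411, 0.367 and 0.0121. Of 12 libraries of 4 weeks 11 correlated best with their own number. No comparison of 6 with 3 weeks had all 3 above 0.1.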

Additional observations from a re-analysis of the deposited data

Results flagged for a closer look

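The change from 3 to 6 weeks differed between quintuple and WT for 14 members by a test of the difference itself in edgeR, all lower in quintuple, as described for UMAMIT20 and AT3G25190. Of all tested genes 0.716% were called lower in quintuple and 1.04% in either direction. This test was chosen after the values were seen. The count of members was 7 without replicate 1 of WT at 6 weeks and 7 without replicate 1 of quintuple at 6 weeks.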

How the results depend on the processing

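Of 288 values recomputed under alternatives for 15 results, 270 stayed within 1.5 times of the value reported. Counts of 0 that stayed at 0 are among the 270 and say little of stability. For the peak heights of chr4-2 against WT and of qem2 against quintuple, no tested gene was called under any setting. The replicate block called 28 members between quintuple and WT at 4 weeks and changed no other count by over 1.5 times. The replicate block within each week gave 48 members between quintuple and WT, 2 between qem2 and quintuple and 17 for the peak height of quintuple against WT. A fit of the compared libraries alone gave 1 member for quintuple against WT at 4 weeks, 59 for 6 against 3 weeks in WT and 61 in chr4-2. Over all genes these fits called 285, 8039 and 7563 in the same order, against 2417, 7426 and 8989 in the main fit. Leaving out 1 library gave 2 to 35 members for quintuple against WT at 4 weeks, 0 to 11 for its peak height, 19 to 28 for 6 against 3 weeks in chr4-2, 24 to 31 in WT, 44 to 56 in quintuple and 49 to 65 in qem2. For the difference of the change from 3 to 6 weeks it gave 7 to 16 between quintuple and WT and 0 to 1 between qem2 and quintuple, where DESeq2 called 2. A minimum size of 1 on the log2 scale left 59 of 196 listed genes called at 4 weeks.

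The list of members itself depended on the libraries. Leaving out 1 library of 4 weeks kept 121 to 146 of the 150 members, with 121 without WT 4 weeks replicate 2. Without the 4 replicate 2 libraries of 4 weeks 96 were kept, with 4 of the 10 highest-scoring members. The libraries of replicate 1 alone kept 21, those of replicate 2 alone 84 and those of replicate 3 alone 84. The median over libraries in place of the mean kept 103, a pseudocount of 0.1 CPM 125 and of 5 CPM 113. The causes were not tested. A 6 week library of 2.91 M reads limits low members there.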
